A study of Mus musculus with 2 samples.

Results

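Tcf7, Lef1, Bach2, Satb1, Klf2, Ccr7, S1pr1, Il7r and Slamf6 are genes of naive and stem-like memory T cells. These 9 genes were taken by symbol from the 32285 genes listed for 2 single-cell RNA-seq libraries, and all 9 had unique molecular identifiers (UMIs, which count captured RNA molecules) in both. The libraries held donor T cells of the spleen after allogeneic hematopoietic cell transplantation (allo-HCT), 1 from day +7 and 1 from day +14. Per the study's methods, irradiated BALB/c mice received T cell-depleted marrow and purified naive splenic T cells, both from C57BL/6 mice, and recipients' cells were excluded by their H2Kd in the sort. The labels give the same injected dose of T cells for both libraries, and the figure legends of the study do not all give that dose. The legends for the single-cell data call the injected cells splenic T cells and do not say that they were naive. Both sets of labels describe a day +7 sort, so the day of each library came from its title. Both library names carry the word PBS, which the labels do not explain, and the labels state no age. Cells of several spleens were pooled before capture, so each day is 1 library without replicates, and cells from before transfer were not analysed here. The sort (CD45+, H2Kb+, H2Kd-, TCRβ+) does not tell the injected T cells from T cells that arose from the donor marrow.

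T cells that have not met antigen keep a transcriptional program led by TCF-1 (Tcf7) and LEF-1 (Lef1), and they circulate through lymphoid organs by means of Ccr7 and S1pr1 while Il7r provides survival signals. Activation turns much of this program down as cells divide and acquire effector functions. A minority of activated cells, termed stem-like or memory precursor cells, keeps TCF-1 and the surface receptor Slamf6 and can give rise to further effector cells. In allo-HCT such cells are studied as a possible source of lasting alloreactivity.

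Of the barcodes kept after filtering, 6981 of 7179 at day +7 and 6825 of 7794 at day +14 held at least 4000 UMIs and were thinned to that depth. Thinning thus left out 198 and 969 cells. Median depth of the kept cells was 9210 and 8144 UMIs. In all, 20 barcodes occurred in both libraries, 17 of them among the kept cells. The T cell gate took cells with at least 3 UMIs of the 6 T cell receptor and CD3 genes. These UMIs also had to outnumber those of the myeloid, B cell and erythroid markers, each taken alone. The gate held 6820 cells at day +7 and 6738 at day +14. Within it, 5504 and 5538 cells carried Cd8a or Cd8b1 without Cd4 or Foxp3 (CD8 gate), 306 and 411 carried Cd4 alone (conventional CD4 gate), and 121 and 47 carried Foxp3, the regulatory T cell factor (Foxp3+ gate). The remaining 889 and 742 T cells, 13.0% and 11.0%, carried no Foxp3 and either both or neither of Cd4 and Cd8. They count in the T cell gate only, and 5.62% and 11.7% of them carried a Tcf7 UMI. The gates matched their genes with 1 exception. In the Foxp3+ gate Cd8a and Cd8b1 together stood at 811 UMIs per 1000000 UMIs of the gate (CPM) at day +7 and 398 CPM at day +14, against 33.2 and 45.3 CPM in the conventional CD4 gate, so this gate held Cd8-expressing cells in unequal amounts on the 2 days and is called by its gate only. Cells with UMIs of at least 3 of 12 cell cycle genes were called cycling, 57.0% of T cells at day +7 and 63.4% at day +14, and 19.6% and 17.9% of T cells lay at the limit, with 2 or 3 such genes. In the T cell gate the 4 B cell markers summed to 20.5 and 3.16 CPM, the 2 NK markers to 7.04 and 0.575 CPM, the 6 myeloid markers to 64.9 and 51.0 CPM, the 6 erythroid markers to 15.7 and 16.0 CPM, and the 4 dendritic cell markers to 0.269 and 1.18 CPM. The rule of the gate itself limits the B cell, myeloid and erythroid sums. The part of all these markers' cells or RNA in the values below was not tested.

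Sequence upstream of Klf2 and Il7r is shown because both genes were lower in the day +14 library and each has 1 window in the RefSeq table (GRCm38.p6, the assembly of the mm10 build that the submitters' notes name). The stretches are the parts, within 250 bases before the RefSeq start, that lie in no GENCODE exon of the gene. Of the 9 genes, 7 had windows in that table, and Ccr7 and S1pr1 had none. The Klf2 stretch lies on the plus strand at chr8:72318812-72319032 and the Il7r stretch on the minus strand at chr15:9529877-9530040, inside the annotated gene but in none of its exons.
Klf2: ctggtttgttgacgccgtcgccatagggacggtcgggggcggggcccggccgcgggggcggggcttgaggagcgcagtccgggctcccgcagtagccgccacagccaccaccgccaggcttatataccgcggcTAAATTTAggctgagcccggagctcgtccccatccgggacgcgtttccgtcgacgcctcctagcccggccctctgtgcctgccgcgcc
Il7r: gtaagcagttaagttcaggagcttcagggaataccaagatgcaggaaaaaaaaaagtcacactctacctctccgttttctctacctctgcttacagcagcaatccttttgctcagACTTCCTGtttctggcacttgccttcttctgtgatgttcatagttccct
The capitals in Klf2 mark TAAATTTA, the core of a MEF2-type motif that reads the same on both strands, 117 to 110 bases before the start. It occurred in 0.545% of 32851 promoter windows of 300 bases and in no other window of the 9 genes. The capitals in Il7r mark ACTTCCTG, an ETS-type motif, 49 to 42 bases before the start. Read on either strand, it occurred in 3.33% of windows, in 1 of 4 Lef1 windows and in 1 of 5 Satb1 windows, and not in the Klf2 window. The FOXO-type motif GTAAACA, in 3.65% of all windows, was in 1 of 2 Tcf7 windows and in no other window of the 9 genes. The TCF and LEF-type motif CTTTGA, in 16.0% of all windows, was in 1 of 4 Lef1 windows and in the Bach2 window. The short KLF-type motif CACCC, in 57.5% of all windows, was in the Klf2 window, 2 of 2 Tcf7, 4 of 4 Lef1 and 4 of 5 Satb1 windows, and not in those of Il7r, Bach2 and Slamf6. All were searched on both strands, and these are matches of letters, not binding sites.

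The first question was which of the 9 genes differed between the days in T cells. Levels are CPM of the pooled UMIs of each gate, and brackets give 95% intervals (exact Poisson for CPM, exact conditional binomial for log2 ratios, Clopper-Pearson for shares). These cover counting error only and not differences between mice. With 1 library per day no test was possible and no P value is given. Il7r and S1pr1 were at least 2-fold lower in the day +14 library. They were 2 of the 7 genes at a mean of 10 CPM or more, against 1.39% of the 6859 genes at that level in T cells. None of the 7 was 2-fold higher, against 2.10% of all. The median log2 ratio was -0.07 over the 7 genes and 0.19 over all genes.

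Il7r (ENSMUSG00000003882, chr15:9505788-9530176) encodes the receptor chain through which T cells receive interleukin-7 survival signals. T cells held 53.6 CPM [52.0, 55.2] of it at day +7 but 11.3 CPM [10.6, 12.1] at day +14. The log2 ratio, day +14 over day +7 unless stated, was -2.24 [-2.35, -2.14]. At 4000 UMIs per cell, 16.1% of T cells at day +7 and 3.67% at day +14 carried an Il7r UMI. In the CD8 gate the same 2 of 7 genes were 2-fold lower, against 1.49% of 6831 genes, and none was 2-fold higher, against 2.03%. There Il7r was at 48.8 and 8.52 CPM, 5.73-fold lower in the later library. In conventional CD4 cells it was at 89.1 and 35.0 CPM, a log2 ratio of -1.35 [-1.67, -1.03]. Il7r stood apart in the Foxp3+ gate, where its 190 CPM [168, 214] at day +7 and 200 CPM [162, 245] at day +14 gave a log2 ratio of 0.08 [-0.27, 0.42].

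S1pr1 (ENSMUSG00000045092, chr3:115710433-115715072), the sphingosine-1-phosphate receptor that lets T cells leave lymphoid organs, stood at 99.0 CPM [96.9, 101] in T cells of day +7 and 44.3 CPM [42.8, 45.8] in those of day +14. Its UMIs were found in 34.4% and 15.9% of T cells. The log2 ratio was -1.25 [-1.31, -1.19] in the CD8 gate, -0.90 [-1.16, -0.63] in conventional CD4 cells and -0.61 [-1.30, 0.03] in the Foxp3+ gate, where the interval took in 0. Klf2 (ENSMUSG00000055148, chr8:72319033-72321656) encodes a transcription factor of quiescence that activates S1pr1. Its levels of 492 CPM [487, 497] on day +7 and 295 CPM [292, 299] on day +14 gave a log2 ratio of -0.74 [-0.76, -0.71]. Its UMIs were found in 81.2% of T cells at day +7 and 52.2% at day +14. Klf2 was thus lower in the later library without reaching 2-fold in T cells as a whole, and its log2 ratio in conventional CD4 cells was -0.97 [-1.09, -0.84].

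Tcf7 (ENSMUSG00000000782, chr11:52252371-52283014), which encodes TCF-1, stood on the other side. T cells held 12.4 CPM [11.7, 13.2] of it at day +7 and, 1.63-fold higher, 20.2 CPM [19.3, 21.3] at day +14, and 3.52% and 6.60% of T cells carried its UMI. The log2 ratio was 0.79 [0.64, 0.94] in the CD8 gate and 0.18 [-0.11, 0.47] in conventional CD4 cells. Bach2 (ENSMUSG00000040270, chr4:32238804-32586108), a repressor of effector genes, was rare at both times, at 1.35 CPM [1.11, 1.62] and 3.96 CPM [3.54, 4.43], below the limit of 10 CPM for counting calls. Its log2 ratio was 1.56 [1.24, 1.88], and it rested on 110 and 317 UMIs, found in 0.572% and 1.90% of T cells. Tcf7 and Bach2 had the 2 highest log2 ratios of the 9 genes in T cells, and scaling the libraries by the median gene lowered them to 0.48 [0.37, 0.59] for Tcf7 and 1.33 [1.02, 1.66] for Bach2.

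Lef1 (ENSMUSG00000027985, chr3:131110471-131224356), the partner of TCF-1, was at 48.0 CPM [46.5, 49.5] and 56.6 CPM [55.0, 58.3]. Its log2 ratio of 0.24 [0.18, 0.30] lay close to the median of all genes, its ratio of 0.21 in the CD8 gate was -0.02 when scaled by the median gene, and 18.3% and 19.5% of T cells carried its UMI. Satb1 (ENSMUSG00000023927, chr17:51736187-51833290), a chromatin organizer of T cell development, was at 50.3 and 55.6 CPM with a log2 ratio of 0.15 [0.08, 0.21], which turned to -0.08 when the libraries were scaled by the median gene. Slamf6 (ENSMUSG00000015314, chr1:171917515-171953170) was at 89.8 CPM [87.8, 91.9] and 85.6 CPM [83.6, 87.7], the smallest log2 difference of the 9, at -0.07. This rank depends on the scaling, since by the median gene the Slamf6 ratio was -0.29, further from 0 than that of Satb1. Ccr7 (ENSMUSG00000037944, chr11:99144196-99155077), the chemokine receptor for entry into lymph nodes, was at 1.76 CPM [1.49, 2.07] and 1.54 CPM [1.28, 1.84], and its log2 ratio of -0.20 [-0.56, 0.16] took in 0. Ccr7 UMIs were found in 43 of 6820 T cells and 38 of 6738.

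Detection in cells of 2 other types in the same libraries was read as a reference for background. In these cells free RNA, doublets with T cells and the cells' own expression were not told apart. The erythroid gate held 76 cells (median depth 35102 UMIs) at day +7 and 12 (8991 UMIs) at day +14, and the myeloid gate 55 (11991 UMIs) and 68 (10238 UMIs), each thinned to the same depth as T cells. Myeloid cells had no Tcf7, Bach2 or Ccr7 UMI at that depth on either day, which allows shares of up to 5.45% and 4.41% and so does not separate them from the shares of T cells with Bach2 or Ccr7, nor from the Tcf7 share at day +7. Klf2 UMIs were found in 43.6% and 35.3% of myeloid cells and in 1.32% of erythroid cells at day +7. S1pr1 UMIs were in 1.82% and 2.94% of myeloid cells, Slamf6 UMIs in 5.45% and 1.47%, and Il7r UMIs in 1.82% and 4.41%. The Il7r share of 3.67% in T cells at day +14 was thus at or below that of the 68 myeloid cells and cannot be told from it as a share. Il7r was not even among T cells of that day. In non-cycling CD8 cells it was at 82.5 CPM in those with a Tcf7 UMI and 11.3 CPM in those without. For Slamf6, S1pr1 and Lef1 the T cell share was above the myeloid share on both days. In the 12 erythroid cells of day +14 the shares were 8.33% for Tcf7 and Il7r and 16.7% for Lef1, S1pr1 and Slamf6, and 8.33% also for Klf2, Satb1 and Ccr7, so for Tcf7, Il7r, S1pr1 and Ccr7 the T cell share of that day did not exceed that of these few cells.

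**Figure D1:**
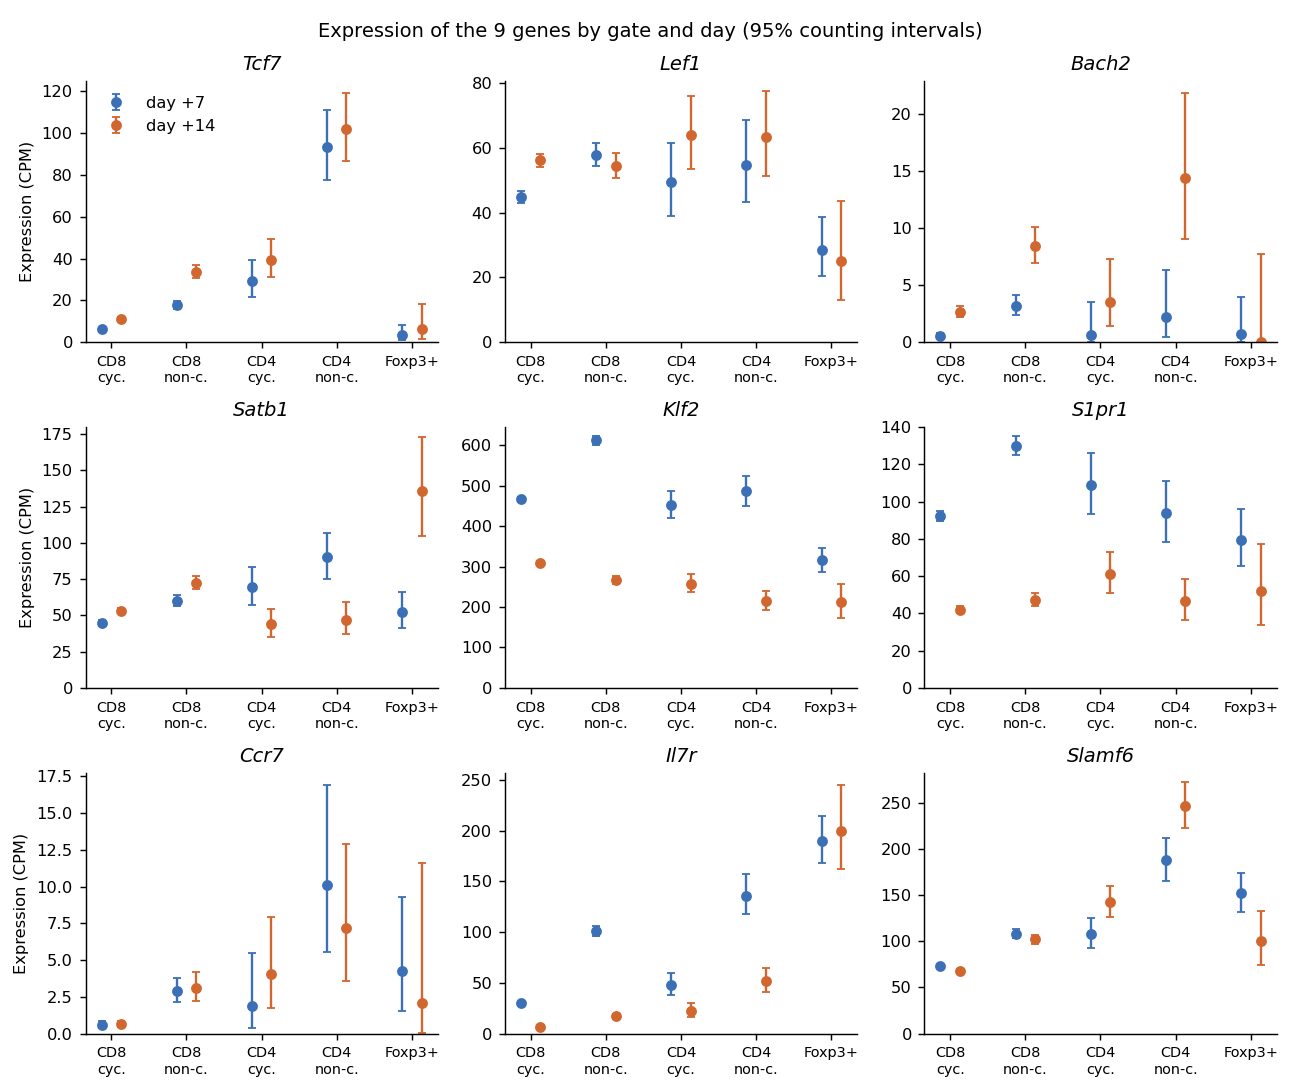
Expression in CPM (y axis, each panel from 0) of the 9 genes in CD8, conventional CD4 (each cycling and non-cycling) and Foxp3+ cells (x axis) at day +7 (blue) and day +14 (orange). Points are sums over the cells of 1 library and bars are 95% Poisson intervals. Klf2 was lower at day +14 in all 5 groups of cells, while S1pr1 and Il7r were lower in the 4 CD8 and CD4 groups, with intervals that overlapped between the days in the Foxp3+ gate.

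Cycling and non-cycling cells were then separated, since the share of cycling cells among those with at least 4000 UMIs differed between the libraries. That limit left out 198 cells at day +7 and 969 at day +14. Non-cycling T cells had medians of 6926 and 5889 UMIs, against 12769 and 12280 in cycling ones. The part of the depth limit in the differing shares was not tested. In non-cycling CD8 cells 3 of 7 genes were at least 2-fold lower at day +14, against 1.48% of 6701 genes. These were Il7r (101 and 17.3 CPM), S1pr1 (130 and 47.2 CPM) and Klf2 (612 and 267 CPM), with a log2 ratio of -1.20 [-1.25, -1.14] for Klf2, and none was 2-fold higher, against 4.04%. In cycling CD8 cells 2 of the 6 genes at 10 CPM were 2-fold lower, against 1.41% of genes, again Il7r and S1pr1, and none was 2-fold higher, against 1.88%, while Klf2 had a log2 ratio of -0.60 [-0.63, -0.57]. Tcf7 had log2 ratios of 0.94 [0.73, 1.15] in non-cycling and 0.89 [0.69, 1.10] in cycling CD8 cells, where its mean lay below 10 CPM. S1pr1 had log2 ratios of -1.46 [-1.59, -1.33] in non-cycling and -1.14 [-1.21, -1.07] in cycling CD8 cells, and Il7r of -2.55 [-2.75, -2.35] and -2.24 [-2.42, -2.07]. The higher Tcf7 level and the lower Il7r and S1pr1 levels were thus found within both kinds of CD8 cell.

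In conventional CD4 cells 1 of 7 genes, Il7r, was 2-fold lower at day +14, against 1.19% of 6987 genes, and none was 2-fold higher, against 4.22%. Satb1 and Slamf6 ran in opposite directions in CD4 and CD8 cells. Satb1 was at 79.0 CPM [69.3, 89.8] and 45.3 CPM [38.5, 52.9] in CD4 cells, a log2 ratio of -0.80 [-1.10, -0.51], against 48.9 and 57.2 CPM and 0.23 [0.16, 0.29] in CD8 cells. The CD8 value was 0.00 after scaling by the median gene. Slamf6 was at 145 CPM [132, 159] and 187 CPM [173, 202] in CD4 cells, a log2 ratio of 0.37 [0.19, 0.55], against 82.6 and 74.8 CPM and -0.14 [-0.20, -0.09] in CD8 cells. Satb1 was lower in both cycling (69.4 and 43.9 CPM) and non-cycling (90.2 and 47.1 CPM) CD4 cells. Among non-cycling CD4 cells 3 of 7 genes were 2-fold lower, against 1.64% of genes, namely Il7r, Klf2 and S1pr1, and among cycling CD4 cells 1 of 7, Il7r, against 1.66%. None was 2-fold higher in either, against 8.92% and 4.52%.

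In the Foxp3+ gate Satb1 was the 1 gene of 6 at the 10 CPM level that was 2-fold higher, against 11.0% of the 7007 genes, and none was 2-fold lower, against 2.25%. Satb1 stood at 52.6 CPM [41.3, 66.0] on day +7 and 136 CPM [105, 173] on day +14. This value rests on 65 UMIs from 47 cells at day +14, and the Cd8 transcripts of the gate differed between the days as given above. Their part in this value was not tested. Slamf6 was at 152 and 100 CPM there, and Lef1 at 28.4 and 25.0 CPM, the lowest Lef1 levels among the 3 gates.

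**Figure D2:**
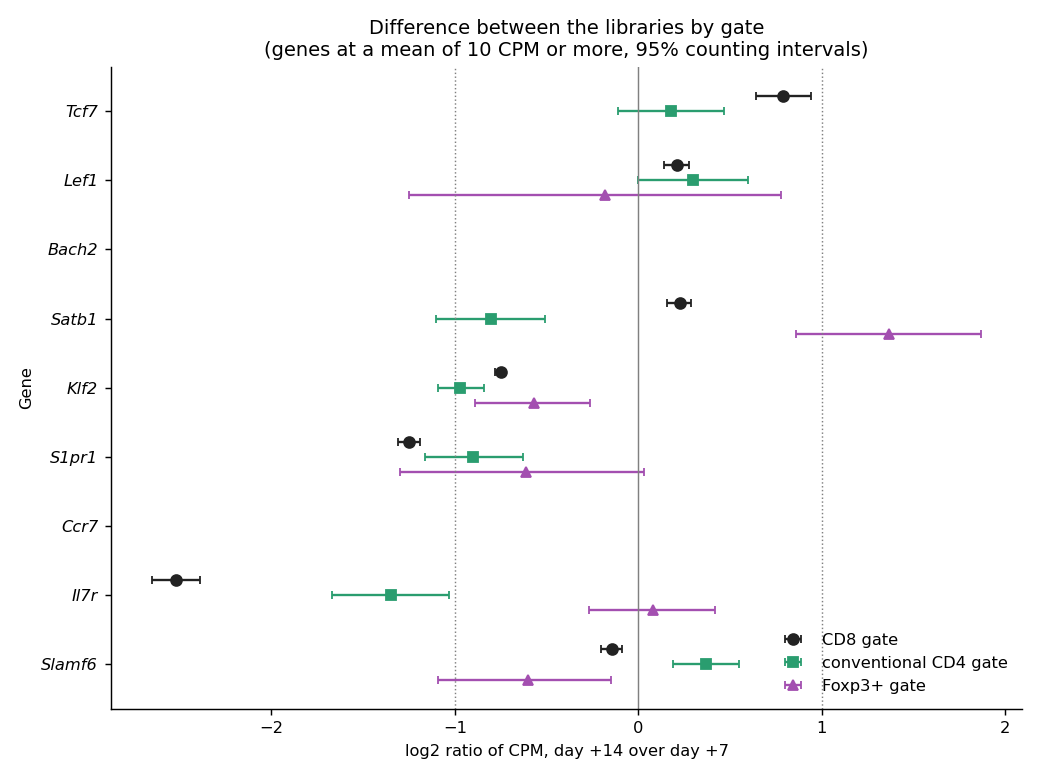
Log2 ratio of CPM at day +14 over day +7 (x axis) for each gene (y axis) in the CD8 (black circles), conventional CD4 (green squares) and Foxp3+ (purple triangles) gates, with 95% intervals. Dotted lines mark 2-fold, and genes below a mean of 10 CPM in a gate (Bach2 and Ccr7 in all 3, Tcf7 in the Foxp3+ gate) are not drawn. Satb1 and Slamf6 lay on opposite sides of 0 in CD8 and CD4 cells.

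The next comparison asked which of the genes differed between cycling and non-cycling CD8 cells of the same library. Tcf7 and Il7r were at least 2-fold lower in cycling cells on both days, 2 of 7 genes each time, against 1.08% of 6510 genes at day +7 and 1.31% of 7045 genes at day +14. None was 2-fold higher, against 6.54% and 5.48%. With cycling set at 5 genes of the list in place of 3, 1 gene was counted on each day. These were Il7r at day +7 and Tcf7 at day +14. A gene also needed a mean of 10 CPM to be counted. At the limit of 3, Tcf7 at day +7 and Il7r at day +14 lay close to that level. Whether the uncounted gene of each day missed the fold or that level is not given here. Tcf7 was at 6.06 CPM in cycling and 17.6 CPM in non-cycling CD8 cells at day +7, and at 11.2 and 33.7 CPM at day +14, with log2 ratios of -1.53 [-1.77, -1.30] and -1.59 [-1.76, -1.41]. Il7r was at 29.8 and 101 CPM at day +7 and at 6.29 and 17.3 CPM at day +14. Slamf6 was lower in cycling cells by a similar amount on both days, with log2 ratios of -0.57 [-0.65, -0.49] and -0.58 [-0.67, -0.49]. Cycling cells held more RNA, at a median of 12662 UMIs against 6899 at day +7 and 12243 against 5998 at day +14, and CPM is a share of that total.

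Klf2 ran in opposite directions on the 2 days. It was at 467 CPM [461, 473] in cycling and 612 CPM [600, 623] in non-cycling CD8 cells at day +7, and at 309 CPM [304, 313] and 267 CPM [258, 276] at day +14. The log2 ratios were -0.39 [-0.42, -0.36] and 0.21 [0.16, 0.26]. At equal depth, Klf2 UMIs were found in 79.7% of cycling and 86.4% of non-cycling CD8 cells at day +7, and in 58.8% and 44.0% at day +14. The genes below 10 CPM, Bach2 and Ccr7, were also lower in cycling CD8 cells. Bach2 was at 0.559 and 3.16 CPM at day +7 and 2.66 and 8.45 CPM at day +14, and Ccr7 at 0.621 and 2.88 CPM and at 0.637 and 3.09 CPM. In conventional CD4 cells Tcf7 and Il7r were again the 2 of 7 genes that were 2-fold lower in cycling cells, against 3.77% of genes at day +7 and 6.44% at day +14, and none was 2-fold higher, against 7.83% and 7.96%. Tcf7 was at 29.4 CPM in cycling and 93.1 CPM in non-cycling CD4 cells at day +7, and at 39.4 and 102 CPM at day +14.

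When CD8 cells were ordered by how many of the 12 cell cycle genes they carried, Tcf7 was lower in each successive range. At day +7 it was at 24.6 CPM [20.7, 29.0] in cells with none, 14.2 CPM with 1 to 2, 8.22 CPM with 3 to 5 and 4.87 CPM [4.13, 5.71] with 6 to 12. At day +14 the values were 45.7 CPM [39.4, 52.6], 28.4 CPM, 13.4 CPM and 10.3 CPM [9.29, 11.4]. Il7r went from 132 to 21.9 CPM between the lowest and the highest range at day +7 and from 22.5 to 6.14 CPM at day +14. Lef1 showed no such order at day +14, at 56.4 CPM [49.4, 64.1] in cells with none and 57.9 CPM [55.5, 60.4] in cells with 6 to 12, whereas at day +7 it was at 56.2 CPM [50.3, 62.7] and 43.6 CPM [41.3, 46.0].

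**Figure D3:**
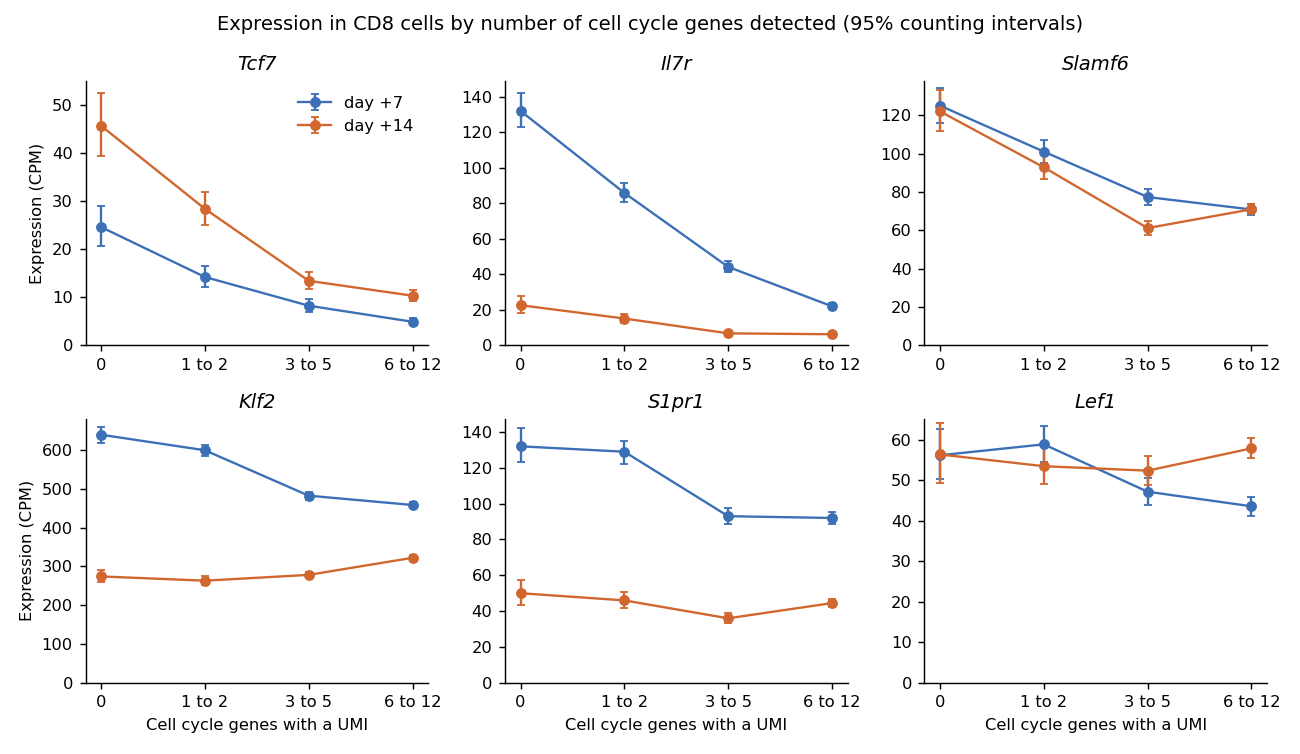
Expression in CPM (y axis, from 0) of 6 genes in CD8 cells by the number of 12 cell cycle genes with a UMI at 4000 UMIs per cell (x axis), at day +7 (blue) and day +14 (orange), with 95% Poisson intervals. Tcf7 was lower in each successive range on both days, and Klf2 was lower at day +7 but not at day +14.

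Between conventional CD4 and CD8 cells of the same library, Tcf7 was the gene that differed most among those at 10 CPM. It was at 58.9 CPM [50.6, 68.3] in CD4 and 9.14 CPM [8.43, 9.90] in CD8 cells at day +7, 6.45-fold higher, and at 66.7 CPM [58.4, 75.8] and 15.8 CPM [14.9, 16.8] at day +14, 4.22-fold higher. At day +7 this was the 1 of 7 genes that was 2-fold higher in CD4 cells, against 1.44% of 6609 genes, and none was 2-fold lower, against 0.817%. At day +14, 3 of 7 were 2-fold higher, against 2.49% of 7200 genes, and none 2-fold lower, against 0.764%. Il7r (35.0 and 8.52 CPM) and Slamf6 (187 and 74.8 CPM) joined Tcf7. At equal depth, 14.4% of conventional CD4 cells at day +7 and 22.1% at day +14 carried a Tcf7 UMI, against 2.60% and 4.80% of CD8 cells. Lef1 showed no comparable difference, with log2 ratios of CD4 over CD8 of 0.10 [-0.14, 0.33] and 0.19 [-0.01, 0.39]. Klf2 and S1pr1 also lay within 1.5-fold of each other in CD4 and CD8 cells on both days. Cycling cells made up 39.2% and 37.5% of conventional CD4 cells and 58.5% and 65.5% of CD8 cells, and within non-cycling cells alone Tcf7 was at 93.1 and 17.6 CPM in CD4 and CD8 cells at day +7 and at 102 and 33.7 CPM at day +14.

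Cells of the Foxp3+ gate had little Tcf7. Only 5 Tcf7 UMIs at day +7 and 3 at day +14 were counted there, 3.55 CPM [1.15, 8.29] and 6.26 CPM [1.29, 18.3], and the log2 ratios over conventional CD4 cells were -4.05 [-5.69, -2.80] and -3.41 [-5.70, -1.85]. The CD8 gate held 9.14 and 15.8 CPM of Tcf7. At day +7 Cd8a and Cd8b1 stood at 811 CPM in the Foxp3+ gate and 918 CPM in the CD8 gate. Cd4 was then at 29.1 CPM in the Foxp3+ gate and 240 CPM in the conventional CD4 gate. The part of Cd8-expressing cells in the ratios over CD4 cells was not tested. Il7r was 2-fold higher in the Foxp3+ gate than in CD4 cells on both days, with log2 ratios of 1.09 [0.84, 1.34] and 2.51 [2.11, 2.91]. At day +7 these were 1 of 7 genes lower, against 2.07%, and 1 of 7 higher, against 2.30%. At day +14 Lef1 was also 2-fold lower and Satb1 2-fold higher, so that 2 of 7 lay on each side, against 3.71% lower and 4.89% higher.

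Detection of several of the genes in 1 cell was compared at equal depth. At least 2 of the 9 were found in 64.1% [63.0, 65.3] of T cells at day +7 and 43.4% [42.3, 44.6] at day +14. The share with none was 6.01% at day +7 and 21.8% at day +14, and the mean number was 2.01 genes per cell at day +7. A large part of this came from Klf2, the gene with the most UMIs. Without it, at least 2 of the other 8 were found in 34.1% [32.9, 35.2] and 23.6% [22.6, 24.7] of T cells. In the erythroid gate 1 of 76 and 2 of 12 cells carried at least 2 of the 9, and in the myeloid gate 5 of 55 and 4 of 68.

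The lower share at day +14 was found in CD8 cells and depended on Klf2 in CD4 cells. In non-cycling CD8 cells the share with at least 2 genes was 72.4% [70.5, 74.2] at day +7 and 40.5% [38.3, 42.8] at day +14, and 41.6% [39.5, 43.6] and 25.2% [23.2, 27.2] without Klf2. In conventional CD4 cells it was 70.3% [64.8, 75.3] and 53.8% [48.8, 58.7] with Klf2, and 42.5% [36.9, 48.2] and 42.1% [37.3, 47.0] without it. In the Foxp3+ gate the shares were 64.5% [55.2, 73.0] and 57.4% [42.2, 71.7], with intervals that overlapped.

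**Figure D4:**
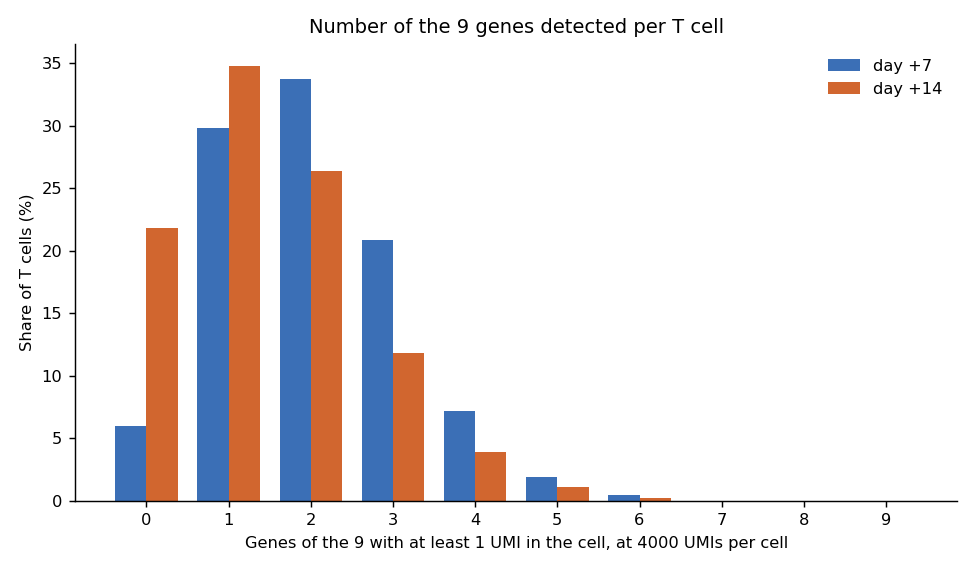
Share of T cells in percent (y axis, from 0) by how many of the 9 genes had a UMI at 4000 UMIs per cell (x axis), at day +7 (blue) and day +14 (orange). Cells with none made up 6.01% at day +7 and 21.8% at day +14, and 30.4% and 17.0% carried at least 3.

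Which of the genes were found in the same CD8 cells was examined next. Among CD8 cells with a Tcf7 UMI, Slamf6 was found in 53.8% [45.3, 62.2] at day +7 and 54.5% [48.3, 60.6] at day +14, against 25.9% [24.7, 27.1] and 21.6% [20.5, 22.7] of CD8 cells without one. Il7r was found in 31.5% [24.0, 39.8] of Tcf7-carrying cells at day +7 and 14.7% [10.6, 19.5] at day +14, against 14.4% and 2.22% of the others. Slamf6 was thus found in a similar share of Tcf7-carrying cells on both days, and in a smaller share of the others at day +14. Il7r was less often found at day +14 in cells with and without Tcf7. Ccr7 was found in 11 of 143 CD8 cells with Tcf7 at day +7 and 14 of 5361 without it, and in 5 of 266 and 14 of 5272 at day +14. Bach2 was found in 6.39% [3.77, 10.0] of Tcf7-carrying CD8 cells and 1.59% [1.27, 1.97] of the others at day +14, and in 1 of 143 and 26 of 5361 at day +7.

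Klf2 and Tcf7 were close to even at day +7. Klf2 was found in 81.8% of CD8 cells with Tcf7 and 82.5% without it at day +7, and in 59.8% and 53.4% at day +14. Lef1 and Satb1 showed no excess of shared cells, with Satb1 in 17.0% of Lef1-carrying CD8 cells and 17.6% of the others at day +7, and in 19.1% and 20.0% at day +14. S1pr1 was more frequent in CD8 cells with Klf2 than in those without it on both days. The shares were 37.3% [35.9, 38.8] and 28.0% [25.2, 31.0] at day +7, and 23.1% [21.6, 24.6] and 6.12% [5.23, 7.12] at day +14. All cells compared here held 4000 UMIs, come from 1 library per day and are not replicates.

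**Figure D5:**
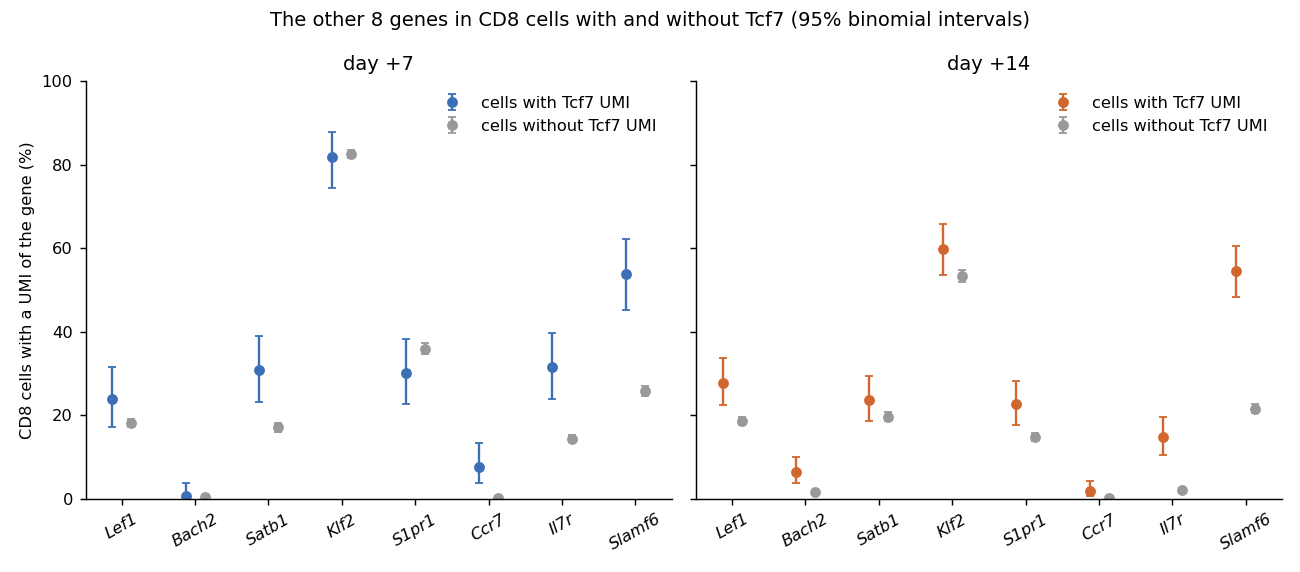
Share of CD8 cells in percent with a UMI of each other gene (y axis, x axis for the gene), in cells with (colored) and without (grey) a Tcf7 UMI, at day +7 (left) and day +14 (right), with 95% binomial intervals. Slamf6 and Il7r were more frequent in cells with Tcf7 on both days.

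Non-cycling CD8 cells with a Tcf7 UMI (95 at day +7, 145 at day +14) were compared with those without (2191 and 1765) over all genes. This split was added after the data were seen, and the genes named are the highest and lowest by mean ratio over both libraries, given as a description. Median depth was 7548 and 6885 UMIs at day +7 and 6534 and 5932 UMIs at day +14. Genes had to reach 50 CPM in the higher of the 2 groups in each library, so they could pass through that group alone. Among the 1567 such genes that ran in 1 direction on both days, Id3, a regulator of memory precursors, was highest. It was at 155 and 14.1 CPM at day +7 and 156 and 13.6 CPM at day +14, with log2 ratios of 3.46 [3.13, 3.77] and 3.52 [3.21, 3.83]. Rgs10, a regulator of G protein signaling, had log2 ratios of 2.43 and 1.92, and Asap1 2.10 and 1.57. Of the 9 genes, 2 were also among the highest 5, with log2 ratios of 1.57 [1.37, 1.76] and 2.15 [1.98, 2.32] for Slamf6 and of 1.16 [0.92, 1.38] and 2.87 [2.48, 3.25] for Il7r. The lowest was Havcr2, an inhibitory receptor of terminally differentiated cells, at 11.0 and 64.8 CPM at day +7 and 13.2 and 71.6 CPM at day +14. Gzmb, a cytotoxic granule protease, was at 247 and 1157 CPM and at 126 and 498 CPM. Gzma, Cx3cr1 and AA467197 completed the lowest 5.

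The effector and terminal genes as a list were lower in Tcf7-carrying cells. Of the members at 10 CPM, 6 of 14 at day +7 (Gzma, Gzmb, Gzmk, Prf1, Klrg1 and Cx3cr1) and 9 of 15 at day +14 were at least 2-fold lower, against 1.74% and 1.88% of all genes, with none 2-fold higher. The median log2 ratio was -0.84 and -1.46, against -0.02 and -0.05 over all genes. Of the other naive and quiescence genes 5 of 21 and 7 of 22 were at least 2-fold higher, against 1.79% and 1.98% of all genes, and none lower. Dapl1, a marker of naive cells, was among them at 114 and 6.86 CPM at day +7 and 27.2 and 2.32 CPM at day +14. The survival gene Bcl2 was also there, with log2 ratios of 1.20 and 1.06. None of 8 partners of TCF-1 and LEF-1 and Wnt pathway genes passed 2-fold on either day. Among inhibitory receptor and exhaustion genes 2 of 8 and 3 of 9 were 2-fold lower (Havcr2 and Entpd1 on both days, with Cd244a at day +14), and Tox2 was 2-fold higher at day +14.

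Splitting non-cycling CD8 cells by the number of the 9 genes gave a different picture. Cells with at least 2 (1654 at day +7, 774 at day +14) were compared with cells with none (98 and 505), and the 9 genes were left out because they made the split. Median depth was 6798 and 8198 UMIs at day +7 and 6077 and 5932 UMIs at day +14. Klf2, the gene of the 9 with the most UMIs, was at 673 and 196 CPM at day +7. At day +14 it was at 450 and 27.8 CPM. How far the split is one by Klf2 alone was not tested. Of the genes at 50 CPM in the higher group, 1560 ran in 1 direction on both days. The chemokine genes Xcl1, Ccl4 and Ccl3, with Tnfrsf4 and Ifng, were the 5 lowest of these. Ccl4 was at 250 CPM in cells with at least 2 and 1619 CPM in cells with none at day +7, and at 394 and 1059 CPM at day +14. Ifng was at 201 and 491 CPM and at 155 and 272 CPM. Xcl1 had a log2 ratio of -4.68 [-4.88, -4.48] at day +7 and -0.42 [-0.57, -0.27] at day +14, and Tnfrsf4 of -2.01 [-2.35, -1.66] and -0.27 [-0.47, -0.07], so the ranks of both rest on the 98 cells of day +7. The highest were Gm2682, Klhl6, Gm26740, Rasa3 and Thap3. Klhl6 had log2 ratios of 1.46 and 1.18, and Gm26740 of 1.02 and 1.10. For Gm2682 (0.65 and 2.23), Rasa3 (0.35 and 1.65) and Thap3 (0.76 and 1.24) the ratio was larger at day +14. Of the other naive and quiescence genes 4 of 21 and 6 of 20 were at least 2-fold higher, against 1.51% and 1.09% of all genes, with Id3 among them on both days. Of the effector and terminal genes 1 of 15 was 2-fold lower at day +7 (Ifng) and none at day +14, against 1.87% and 0.517%, and 1 was 2-fold higher at day +7 (Prdm1) and none at day +14.

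Other genes of the naive program, from a fixed list of 25, were compared between the days. Of the 19 at 10 CPM in T cells, none was 2-fold higher, against 2.10% of all genes, and 1, Klf3, was 2-fold lower at day +14, against 1.39%. Their median log2 ratio was -0.09 against 0.19 over all genes. Rasgrp2, an activator of Rap1 in lymphocyte adhesion, had 343 CPM in the earlier and 183 CPM in the later library, a log2 ratio of -0.91 [-0.94, -0.88]. Ms4a4b (1612 and 1319 CPM) and Ms4a6b (604 and 487 CPM), membrane proteins of naive T cells, had log2 ratios of -0.29 and -0.31. Ets1, a T cell transcription factor (245 and 325 CPM), and Btg1, an antiproliferative gene (178 and 254 CPM), were higher, at 0.40 and 0.51. Within CD8 cells of the same library, 4 of 20 listed genes at day +7 and 4 of 19 at day +14 were 2-fold lower in cycling cells, against 1.08% and 1.31% of all genes, with Id3, Bcl2 and Btg1 on both days. At day +7 1 of the 20, Myb, was 2-fold higher, against 6.54%.

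The lists that follow are read against the same 2.10% of all genes 2-fold higher and 1.39% lower in T cells. Of the 8 TCF-1 and LEF-1 partners and Wnt pathway genes at 10 CPM, none passed 2-fold between the days, and the median log2 ratio was 0.30 against 0.19. Tle5, the gene of this list with the most UMIs, was at 529 and 514 CPM. Of the 15 effector and terminal genes at that level, Ccl5, Zeb2 and Eomes were 2-fold higher and Gzma and Gzmb 2-fold lower at day +14, with a median log2 ratio of 0.18 against 0.19. Of the 8 inhibitory receptor and exhaustion genes Tox (65.5 and 211 CPM) and Cd160 (119 and 244 CPM) were 2-fold higher and none lower, with a median of 0.53 against 0.19. None of the 12 cell cycle genes passed 2-fold, with a median of 0.26 against 0.19, and at these background shares a count of 0 among 8 or 12 genes says little about a list.

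Across 12 groups of cells (2 days, 3 gates, cycling and non-cycling), the genes whose level on the log2(CPM + 1) scale ran most like that of Tcf7 were Decr1, Bhlhe40, Tnfsf8, Nrp1 and Lilr4b, with Pearson r between 0.91 and 0.93 among 6946 genes. The groups come from 2 libraries and share depth and library, so r is a description over 12 points. Among the 9 genes the closest pairs were Lef1 and Bach2 at 0.81 and Klf2 and S1pr1 at 0.72, and Tcf7 and Lef1 stood at 0.66. Lef1 and Il7r ran most in opposite order, at -0.71. The Foxp3+ groups, of 21 to 68 cells, had the lowest Lef1 levels (23.6 to 32.4 CPM). They also had the highest Il7r levels (162 to 247 CPM). Bach2 was at most 14.4 CPM in any group and at 0 CPM in some Foxp3+ groups. The part of these small groups in r was not tested.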

How the data were processed

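Donor T cells sorted from recipient spleens were examined by scRNA-seq at day +7 and day +14, with 1 library per day. The authors deposited whole-number counts of UMIs per gene and cell for barcodes that passed cell detection, with no normalization. The submitters' processing notes name Cell Ranger 6.1.2 and mm10. Barcodes with 500 to 7500 genes and at most 15% mitochondrial UMIs were kept. Kept cells with at least 4000 UMIs were thinned to 4000 with a fixed seed (Python 3.11.15, numpy 2.4.6, scipy 1.17.1, pandas 2.3.3), and gates and shares of cells were read at that depth. Erythroid and myeloid gates needed 10 UMIs of their markers. CPM and log2 ratios used all UMIs of the gated cells, scaled by their total. A call needed 2-fold and a mean of 10 CPM, and genes that define a gate were left out of its comparison. Scrublet (scanpy 1.11.5) marked no barcode in either library, with highest scores of 0.529 and 0.467 against thresholds of 0.596 and 0.599, so it has not worked here and doublets remain. An alternative left out the 433 and 518 highest scores.

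The members, gene lists and comparisons were chosen with earlier results of these data known. Named are the 9 members, up to 5 genes a list by UMIs, the genes of a list past 2-fold and the 5 genes most like Tcf7. Also named are the 5 highest and lowest ratios of a split of CD8 cells. These come from genes at 50 CPM in the higher group, with 1 direction in both libraries. The list genes past 2-fold, the Tcf7 split, the separation of cycling cells between days, the Foxp3+ over CD4 comparison, the ranges of cell cycle genes and Bcl2, Id3 and Dapl1 were chosen after values were seen. Gene positions are from GENCODE M21 and promoter windows from RefSeq. The calculations were tested on simulated data. Some items are not reported here.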

Additional observations from a re-analysis of the deposited data

Results flagged for a closer look

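Contrasts of the same kind ran in opposite directions, with intervals clear of 0, for 3 of the 9 genes. None of these differences was tested, since each rests on 1 library per day.

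For Satb1, the day +14 over day +7 log2 ratio was -0.80 in conventional CD4 and 0.23 in CD8 cells, a difference of -1.03, and 1.37 in the Foxp3+ gate, which lay 2.17 above the CD4 value. Read the other way, Satb1 was higher in CD4 than in CD8 cells at day +7 (log2 ratio 0.69) and lower at day +14 (-0.34), the same difference of -1.03. For Slamf6, the ratio was 0.37 in CD4 and -0.14 in CD8 cells, a difference of 0.51, and -0.60 in the Foxp3+ gate, 0.97 below CD4 (a difference of -0.97). For Klf2, the cycling over non-cycling log2 ratio in CD8 cells was -0.39 at day +7 and 0.21 at day +14, a difference of 0.60. Values of the Foxp3+ gate rest on 47 cells at day +14, and with gates from all UMIs the Slamf6 ratio there was -0.07 [-0.39, 0.23], no longer clear of 0. The Satb1 ratio in CD8 cells was 0.00 [-0.07, 0.07] when scaled by the median gene, so its opposite direction to CD4 cells depends on the scaling.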

How the results depend on the processing

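No paired analysis was possible because each day is 1 library, and no replicate could be left out. In T cells and in CD8 cells Il7r and S1pr1 were the 2 genes at least 2-fold lower at day +14 under each alternative but the 1.5-fold limit, where Klf2 made 3. None was higher, except 1 (Bach2) without the filter on low counts and 1 (Tcf7) at 1.5-fold. In conventional CD4 cells the count lower went from 1 to 2 with Klf2 added (median scaling, thinned UMIs, highest Scrublet scores left out) and to 4 at 1.5-fold, and the count higher from 0 to 1 (Bach2) without the filter. In the Foxp3+ gate the count lower went from 0 to 1 with thinned UMIs (Klf2), to 1 without the filter (Ccr7) and to 2 at 1.5-fold. Cycling over non-cycling CD8 cells gave 2 lower on each day, 4 without the filter and 1 with cycling set at 5 genes (Il7r at day +7, Tcf7 at day +14). That last count also needed a mean of 10 CPM, so a gene could drop out by its level alone. CD4 over CD8 gave 1 higher at day +7, 2 without the filter and 4 at 1.5-fold, and 3 at day +14, 5 without the filter. The share of all genes called was computed for the main setting only. Counts under the alternatives thus have no such share beside them and cannot be read as more or fewer than among all genes. The share of T cells with at least 2 genes, 64.1% and 43.4%, was 38.6% and 22.1% at 2000 UMIs, 76.6% and 57.2% at 6000 UMIs, 90.0% and 67.0% without thinning, 30.4% and 17.0% for at least 3 genes, and 34.1% and 23.6% without Klf2 (added later). Day +14 was lower under each. Of 35 log2 ratios in 4 gates, 3 changed sign with median scaling (Satb1 in T cells, Lef1 and Satb1 in CD8 cells), 3 with thinned UMIs and 2 with gates from all UMIs, the last 5 in the Foxp3+ gate.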
